A study of Mus musculus with 30 samples.

Results

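Mice homozygous for a Pdgfb allele without the retention motif (pdgfbret/ret, here ret mutants) were compared with heterozygous controls (pdgfbret/+, here ret controls) in RNA of brain microvascular fragments, pieces of small vessel separated from the rest of the brain. The comparison took 4 mutant and 4 control arrays of the 30 Affymetrix arrays in the series. All 8 came from mice of the C57/B6/J strain, and the control mice also carried 1 retention allele, so no array of this comparison had only the normal form of the growth factor. Controls 1, 2 and 3 were 8 months old and control 4 was 10 months old, mutant 1 was 10 months old and mutants 2, 3 and 4 were 7 months old. The labels name no brain region for these mice. The values are log2 signals, so a difference of 1 is a doubling. Each gene was read from the brightest probe set paired with that gene alone, and 11243 of 18194 genes were tested because that probe set was above 4 in at least 3 arrays of the series. A second model is used beside the first for 8 cerebrum arrays: mice without mouse Pdgfb in which Tie2Cre, active in endothelium, switches on a human transgene (Tie2Cre, R26P+/0, pdgfb-/-), against R26P+/0, pdgfb+/+ controls with the transgene silent. These R26P mice are of mixed C57/SV129 background, and their labels give 2 ages, 1 year in the title and 2 months in the age field.

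Platelet-derived growth factor B is made by endothelial cells and binds PDGFRB on pericytes, the mural cells that wrap capillaries. A stretch of basic residues at the end of the protein, the retention motif, holds it on heparan sulphate near the cell that secreted it, and without that hold pericytes are recruited poorly. In the brain pericytes take part in forming and keeping the blood-brain barrier, the set of junctions, selective transporters and suppressed vesicle transport that separates blood from nervous tissue. Because the RNA came from whole fragments, fewer cells of a type and less RNA per cell cannot be told apart in any result that follows.

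3 upstream stretches are shown as examples of letters found upstream of genes in the antigen-presentation and lipid-handling lists. Each is the 150 bases before the RefSeq transcription start in GRCm38.p6, read on the gene's own strand. In the first pair, H2-Aa (chr17:34287824-34287973, minus strand) and H2-Eb1 (chr17:34305717-34305866, plus strand), capitals mark CTGATTGG, the Y box known from promoters of class II antigen-presenting genes. In Hmgcs1 (chr13:119690201-119690350, plus strand), capitals mark TCACCCCAC, a sterol response element.
H2-Aa: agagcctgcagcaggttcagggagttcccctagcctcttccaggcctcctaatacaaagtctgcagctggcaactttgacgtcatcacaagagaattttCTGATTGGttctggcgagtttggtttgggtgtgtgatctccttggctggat
H2-Eb1: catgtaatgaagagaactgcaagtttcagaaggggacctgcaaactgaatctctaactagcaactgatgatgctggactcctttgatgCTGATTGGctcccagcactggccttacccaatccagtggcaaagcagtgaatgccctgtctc
Hmgcs1: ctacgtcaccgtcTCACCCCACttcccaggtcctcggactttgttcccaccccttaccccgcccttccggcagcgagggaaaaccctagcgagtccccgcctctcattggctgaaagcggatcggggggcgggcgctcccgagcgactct
The Y box starts 51 bases before the start of H2-Aa and 62 bases before that of H2-Eb1, and the sterol element 137 bases before that of Hmgcs1. RefSeq promoters of 300 bases (250 before the start and 50 after it) were given for 9136 of the genes tested. On either strand CTGATTGG occurred in 6.46% of them and TCACCCCAC in 0.679%. The Y box was also found for Tap1, H2-K1 and H2-D1 but not for Psmb8, and the sterol element was found for neither Insig1 nor Abca1, all genes described below. No promoter was given for H2-Ab1, Cd74, Sqle or Abcg1, so these were not examined. The matches describe letters in the sequence, and no binding was measured.

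The arrays held vessel RNA. Over 20 endothelial genes tested the mean signal was 13.0 to 13.3 on all 8 arrays, and over 7 neuronal genes it was 3.72 to 5.61. All 8 arrays shared a lowest value of 2.16, a floor that 35.8% to 36.7% of probe sets take, and a gene there has no measured level. Correlations between arrays over the genes tested were 0.986 to 0.992 within controls and 0.957 to 0.986 within mutants. Mutant 4 stood apart with the highest mean over choroid plexus genes, 10.5 against 7.62 to 9.52 on the other 7 arrays. Xist, expressed from the inactive X chromosome, was at 12.2 to 12.7 in controls 1, 2 and 3, which are labelled male, and at 2.32 in control 4, labelled female, which instead had the Y-linked Eif2s3y at 9.49. The sex labels of the 4 controls therefore go against these transcripts, while those of the 4 mutants match them, and by transcript each group held 3 female arrays and 1 male array. With Xist as a covariate 1744 genes were called.

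Of the genes tested, 1870 (16.6%) differed between ret mutants and ret controls at an adjusted p under 0.05 (limma with Benjamini-Hochberg adjustment over all genes tested), 900 higher (8%) and 970 lower (8.63%) in mutants. Of the called genes, 360 were at least 2-fold higher and 342 at least 2-fold lower, and 48 and 37 were past 8-fold. The median log2 difference over all genes tested was 0.01. The groups did not overlap for 1796 of the called genes, and they did not overlap for 23.5% of all genes tested (11.7% higher, 11.8% lower). Without control 2 the number of calls was 1153.

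Pituitary hormone transcripts divided the mutants. Gh, which encodes growth hormone, read 14.90, 13.68, 2.84 and 15.23 in mutants 1 to 4 and 2.17 to 2.47 in controls. Mutants 1, 2 and 4 thus held a transcript that was near the floor in mutant 3 and the controls, and mutant 3 served as an array against which their changes could be set. Calls were therefore made again from mutants 1, 2 and 4 alone, a fit that never saw mutant 3. It called 1359 genes (12.1%), 634 higher (5.64%) and 725 lower (6.45%), a number that fell to 720 without control 2, 772 without mutant 2, 808 without control 1 and 845 without control 3.

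Most of these changes were also present on mutant 3. Of the 634 rises, 590 (93.1%) had mutant 3 above every control, and of the 725 falls, 693 (95.6%) had it below every control, against 53.5% of all genes tested that had it beyond the controls on the side of the other mutants. The calls and the place of mutant 3 were both read against the same 4 controls, so these shares are not independent of the calls. The median rise was 1.05 in mutants 1, 2 and 4 and 1.04 on mutant 3, and the median falls were -0.84 and -0.88. Also counting size, 1237 of the 1359 called genes had a difference on mutant 3 of at least 50% of that on the other mutants, 46 were intermediate, and 76 were not seen on mutant 3 (44 higher, 32 lower). Mutant 3 alone against the controls, with the spread taken from the controls, gave 919 calls (8.17%), 441 higher (3.92%) and 478 lower (4.25%). In what follows, a change is described as also seen on mutant 3 when its size there passed the 50% criterion. Calls made from all 4 mutants already use mutant 3, and 883 of their 900 rises and 940 of their 970 falls were also seen there. For such genes being also seen is therefore no separate support.

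**Figure D1:**
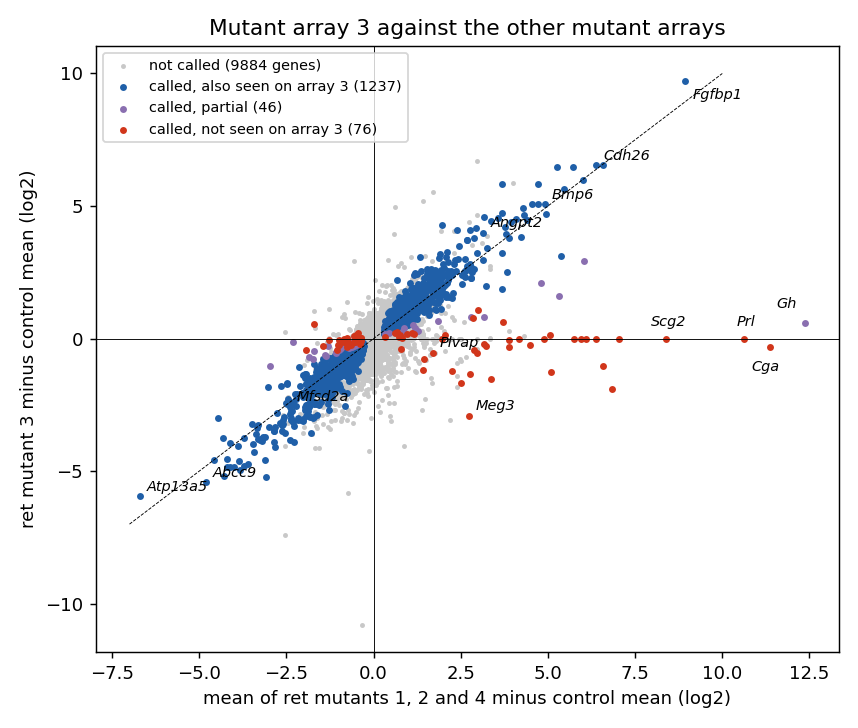
Mean log2 difference from the ret controls of mutants 1, 2 and 4 (horizontal axis) and of mutant 3 (vertical axis) for each gene tested. Colours give the genes called without mutant 3: 1237 also seen on mutant 3 lie along the dashed line of equal difference, and 76 not seen there, among them Prl, Cga and Scg2, lie near or beyond the horizontal line at 0, with Meg3 at -2.91 on mutant 3.

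The receptor and its ligand were read first. Pdgfb itself was at 11.83, 11.73, 11.72 and 12.12 in controls and 12.51, 12.15, 12.31 and 11.71 in mutants, with overlapping groups (log2 difference 0.32, SE 0.18, adjusted p = 0.26). An allele that lacks only the motif can still be read by a probe set, so the Pdgfb signal does not check the genotype. Pdgfrb, the receptor on mural cells, read 11.60, 12.02, 11.93 and 11.74 in controls and 8.40, 8.32, 8.11 and 9.27 in mutants (log2 difference -3.30, SE 0.25, adjusted p = 3.2e-04). No mutant came within 2 log2 units of a control.

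Pericyte genes fell almost as a block. Of 19 pericyte markers tested, 18 fell and 0 rose, with a median log2 difference of -3.14. The mean over the list was 9.63 to 10.1 in controls and 6.24 to 7.52 in mutants, highest in mutant 4. Atp13a5, a P-type ATPase used as a brain pericyte marker, was at 10.17, 10.72, 10.75 and 10.49 in controls and 3.22, 4.06, 4.58 and 4.21 in mutants, near background. Abcc9 and Kcnj8 encode the regulatory and pore subunits of the ATP-sensitive potassium channel of mural cells. For Abcc9 the controls lay between 11.40 and 12.44 and the mutants between 6.40 and 7.29 (log2 difference -4.96, SE 0.27, adjusted p = 7.9e-05), a 31.2-fold fall. Its partner Kcnj8 went from 10.06 to 10.58 in controls to 5.68 to 7.29 in mutants. Vtn, which encodes vitronectin of the vessel matrix, fell 9.86-fold from a high level, 14.36 ± 0.11 (SD, n = 4) in controls to 11.05 ± 0.50 in mutants. On mutant 3 alone the difference from the control mean was -5.95 for Atp13a5, -5.41 for Abcc9 and -4.85 for Higd1b, a pericyte-enriched gene of the hypoxia-inducible domain family.

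Outside the marker list, the largest falls of well-expressed genes included several genes of ion and nucleotide signalling. Casq2, the calcium store protein calsequestrin 2, read 10.24 to 10.60 in controls and 6.90, 5.32, 5.63 and 6.81 in mutants (log2 difference -4.31, SE 0.37, adjusted p = 4.8e-04). It is also in the smooth muscle list below. P2ry14, a receptor for UDP sugars, fell by 4.28, and Ano1, a calcium-activated chloride channel, fell by 3.60. Pde8b, a cyclic AMP phosphodiesterase, fell by 3.43 and Cracd, which restrains actin capping protein, fell by 3.41. Slc6a20a, an imino acid transporter that is also a perivascular fibroblast marker, went from 10.30 ± 0.35 to 6.25 ± 1.11, and mutant 4, at 7.86, was the least reduced. Ccn3, a matricellular protein, fell by 3.49, although control 4 was at 8.05 and the other controls at 9.32 to 9.56. Grm3, a metabotropic glutamate receptor, ended near background in mutants, at 2.59 to 3.46 against 6.73 to 7.65 in controls. All of these falls were also seen on mutant 3, which their calls included.

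The nitric oxide receptor of mural cells fell with them. Gucy1b1 and Gucy1a1 encode the 2 subunits of soluble guanylate cyclase, which makes cyclic GMP when nitric oxide binds. Gucy1b1 was at 9.29, 9.73, 9.38 and 9.0 in controls and 6.86, 6.09, 5.86 and 6.49 in mutants (log2 difference -3.02, SE 0.24, adjusted p = 3.9e-04). Gucy1a1 fell by 2.31 and Pde5a, which degrades cyclic GMP, fell by 1.13. Ramp3, which gives the calcitonin receptor-like receptor its affinity for adrenomedullin, went from 9.30 to 9.89 in controls to 5.68 to 7.44 in mutants. The groups were apart for each of these 4 genes. Over 21 vasoactive genes tested 6 fell and 6 rose, the rises being led by the peptides described below.

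Of 16 smooth muscle genes tested, 4 fell and 2 rose, with a median log2 difference of -1.28. At an unadjusted p under 0.05 in limma, 13 were lower and 2 higher. The mean over the list was 9.60 to 10.5 in controls and 8.99, 8.48, 8.31 and 9.68 in mutants. The number called lower depended on single arrays. It was 11 without mutant 4, 2 without control 1, control 4, mutant 1 or mutant 3, and 1 without control 2, control 3 or mutant 2. Tpm1, a tropomyosin, went the other way, from 11.49 to 12.01 in controls to 12.80 to 13.26 in mutants (log2 difference 1.33, SE 0.16, adjusted p = 0.0019).

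Astrocyte genes, which reach such preparations with the end-feet attached to vessels, also fell: 10 of 14 tested were lower and 0 higher, median -1.22, and 4 were lower with Gh as a covariate or on mutant 3 alone. Slc1a2, the main glutamate transporter of astrocytes, read 11.81, 12.47, 12.35 and 12.26 in controls and 10.41, 10.26, 10.57 and 10.42 in mutants (log2 difference -1.81, SE 0.15, adjusted p = 4.3e-04). Mlc1, a membrane protein of end-feet, fell by 1.63. The mean of the list was 8.63 to 9.14 in controls and 7.55 to 8.02 in mutants, and mutant 3, at 7.67, lay inside the range of the other mutants.

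**Figure D2:**
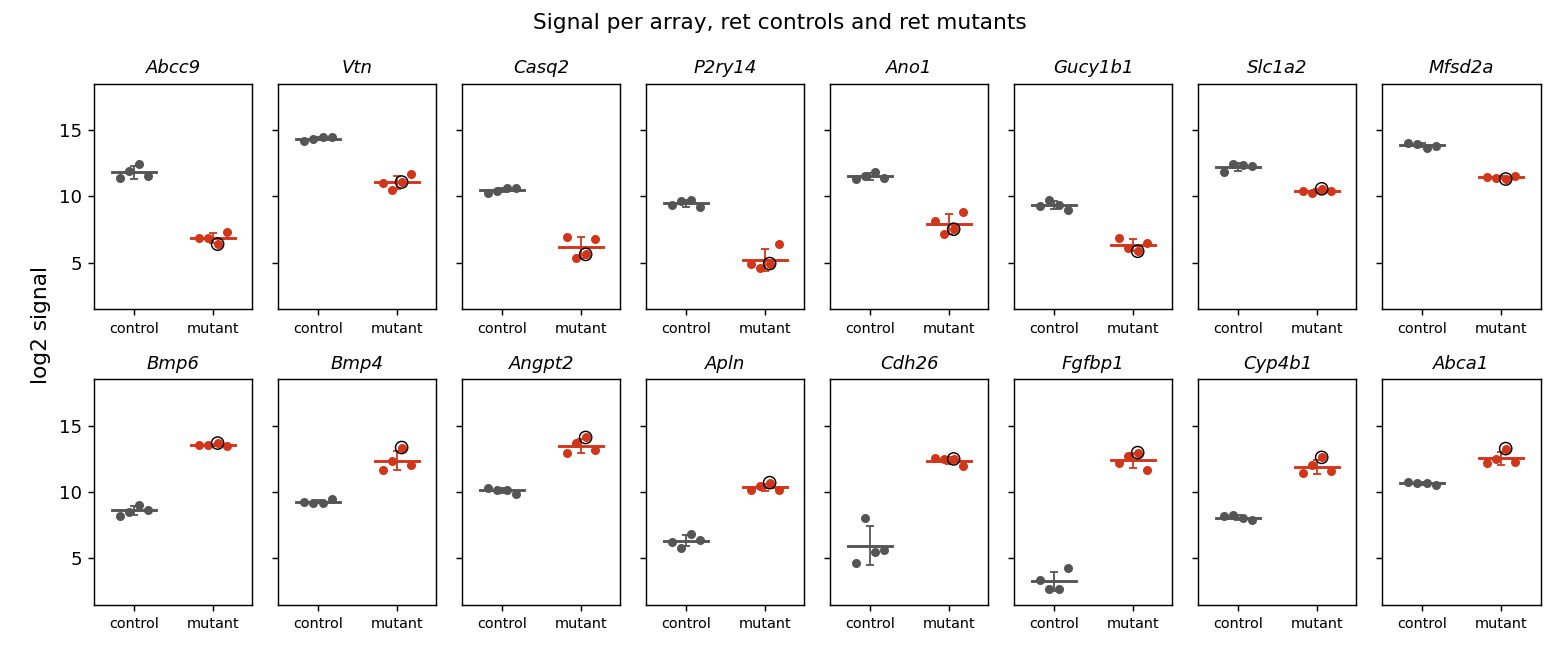
Log2 signal of 16 genes on each of the 4 ret control and 4 ret mutant arrays (points), with group means (horizontal lines) and SD (error bars). The circled point is mutant 3, without Gh, and for each of the 16 genes it lies with the other mutants, apart from all controls. All 16 were called with mutant 3 among the mutants.

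Several secreted growth-factor and peptide genes were among the rises. Fgfbp1, whose product releases fibroblast growth factors from matrix, was near background in controls, at 3.39, 2.71, 2.71 and 4.25, and at 12.19, 12.73, 12.98 and 11.67 in mutants (log2 difference 9.13, SE 0.42, adjusted p = 3.3e-05), a size that depends on how background was read in controls. Bmp6, a bone morphogenetic protein, read 8.23, 8.54, 9.05 and 8.68 in controls and 13.56, 13.54, 13.70 and 13.50 in mutants, a rise of 4.95 (SE 0.16, adjusted p = 1.1e-05) with a mutant SD of 0.09. Angpt2, the angiopoietin that opposes Tie2 activation in most settings, rose from 9.87 to 10.35 in controls to 12.98 to 14.12 in mutants, with mutant 3 highest. These genes separated the groups by wide gaps, and mutant 3 was 9.72, 5.07 and 3.99 above the control mean for the 3 genes in that order.

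Genes of angiogenic sprouts rose in part. Of 18 sprouting genes tested 5 rose and 4 fell, with 3 rising without control 1 or without mutant 2. Apln, the peptide apelin of endothelial tip cells, went from 6.26, 5.82, 6.85 and 6.38 to 10.13, 10.48, 10.71 and 10.15 (log2 difference 4.04, SE 0.23, adjusted p = 1.1e-04). Adm, adrenomedullin, rose by 3.25 to a mutant mean of 13.18, while its receptor partner Ramp3 fell as described. Edn1, which encodes the vasoconstrictor endothelin 1, rose from 12.75 ± 0.37 to 15.04 ± 0.15. Unc5b, a netrin receptor of arterial and tip cells, instead fell, from 11.49 to 11.68 in controls to 10.62 to 10.84 in mutants.

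In the BMP and TGF-beta list, 7 of 23 genes rose and 1 fell, median 0.17. Ligands led the rises: beside Bmp6, Bmp4 went from 9.25, 9.17, 9.22 and 9.48 to 11.70, 12.36, 13.36 and 12.06 (log2 difference 3.09, SE 0.33, adjusted p = 0.0012), and Tgfb2 rose by 1.44. Among genes that TGF-beta and stretch are known to induce, Ccn2 rose from 12.40 ± 0.61 to 15.09 ± 0.06 and Ccn1 by 1.96. The inhibitor Smad6 was at 10.50 to 10.87 in controls and 10.81 to 11.46 in mutants, with overlapping groups (log2 difference 0.37, adjusted p = 0.15). Igfbp3, an insulin-like growth factor carrier, rose by 2.08, with mutant 3 at 11.82 the lowest mutant.

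Other rises as large were in genes of several kinds. Cdh26, a cadherin, was spread from 4.62 to 8.04 in controls and stood at 12.55, 12.47, 12.50 and 11.99 in mutants (log2 difference 6.42, SE 0.66, adjusted p = 0.0011). Ablim3, an actin-binding LIM protein, rose by 4.68, and Cyp4b1, a cytochrome P450, from 7.86 to 8.26 in controls to 11.43 to 12.62 in mutants. Bst1, an ADP-ribosyl cyclase, rose by 3.52 from controls spread between 3.49 and 6.07. Slco1a5, an organic anion transporter, and Gpr143, a receptor known from melanosomes, were near background in controls, with means of 4.07 and 2.80, and reached 10.63 and 8.81 in mutants. Slc22a14, a transporter of the organic ion family, was at the floor on all 4 control arrays and at 8.07, 7.22, 8.65 and 6.96 in mutants. The 7 genes were also seen on mutant 3, which their calls included.

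Antigen-presentation genes rose together. Of 13 tested, 9 rose and 0 fell, with a median log2 difference of 0.87. All 9 were also seen on mutant 3, which their calls included. The class II genes, whose products display peptides from engulfed proteins, moved most. H2-Aa, with its Y box printed above, read 9.62, 11.27, 10.39 and 9.41 in controls and 11.93, 12.43, 12.56 and 13.73 in mutants (log2 difference 2.49, SE 0.51, adjusted p = 0.015). H2-Eb1, the other gene with a printed Y box, read 7.44, 8.82, 9.29 and 7.50 against 9.83, 10.80, 10.89 and 12.60 (log2 difference 2.77, SE 0.66, adjusted p = 0.027). The groups did not overlap, but controls spanned nearly 2 log2 units and mutant 4 was highest for both genes. For H2-Eb1 the adjusted p rose to between 0.0544 and 0.073 when control 1, 2 or 4 or mutant 2 or 3 was left out. H2-Ab1 rose by 2.43 and Cd74, the invariant chain that guides class II molecules, by 2.65.

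Class I genes, which display peptides made inside the cell, also rose. H2-K1 went from 14.88 to 15.37 in controls to 15.55 to 15.91 in mutants, and H2-D1 from 14.42 to 14.78 to 14.95 to 15.14, both near the top of the scale, so the size of their rise is not set against that of the class II genes. Tap1, which carries peptides into the endoplasmic reticulum, rose from 8.41 to 9.38 to 9.66 to 10.10, and the immunoproteasome subunit Psmb8 rose by 0.87. The H2-K1 call was lost without control 2, at an adjusted p of 0.0522. The count of 9 rises in the antigen-presentation list was 4 with no filter on low values, 2 with the replicate number as a block, and 0 with Gh as a covariate. No control held Gh, so with that covariate the difference rests largely on mutant 3. The median difference of the list was 0.85 in mutants 1, 2 and 4 and 0.92 on mutant 3. The latter is a size on 1 array and is no separate support for the rises.

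Leukocyte markers moved with these genes. Of 8 blood leukocyte markers tested 6 rose and 0 fell, the mean over the list being 6.48 to 7.25 in controls and 8.39 to 9.03 in mutants, and 9 further markers on the arrays were below the filter. The count of 6 was 2 with the spread taken over 24 arrays and 3 with Gh as a covariate or on mutant 3 alone. Lyz2, the lysozyme of myeloid cells, read 9.92, 8.52, 9.38 and 8.86 in controls and 11.32, 11.70, 11.76 and 12.45 in mutants (log2 difference 2.64, SE 0.35, adjusted p = 0.0027). Ptprc, the pan-leukocyte antigen CD45, rose from 9.85 to 10.78 to 11.23 to 12.10, and Clec7a, a glucan receptor of myeloid cells, from 4.37 to 6.05 to 8.25 to 10.26, highest again in mutant 4. Of 18 microglia and macrophage markers 0 were called in either direction (limma, adjusted p under 0.05; 7 higher and 0 lower at an unadjusted p under 0.05), with a median of 0.61 and list means of 9.17 to 9.79 in controls and 9.71, 10.1, 9.80 and 10.7 in mutants. The part of such cells in the antigen-presentation values was not tested.

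**Figure D3:**
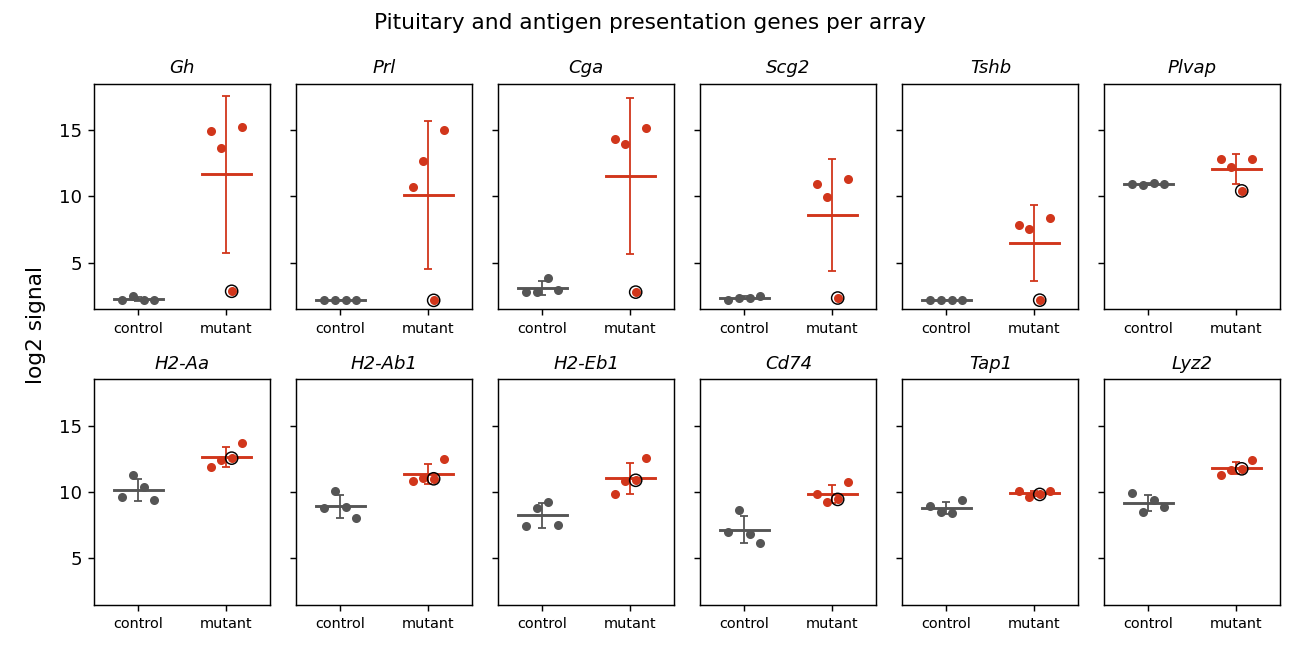
Log2 signal on each ret control and ret mutant array (points) with group means (lines) and SD (error bars) for 6 genes chosen for the pituitary comparison and 6 antigen-presentation or leukocyte genes. The circled mutant 3 lies at or near the controls for Gh, Prl, Cga, Scg2 and Tshb and below them for Plvap, and with the other mutants for the 6 genes of the lower row.

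Barrier genes divided by kind. Of 22 transporters of brain endothelium tested 8 fell and 1 rose, median -0.39, and 5 fell without control 2. Mfsd2a, the lipid transporter of brain endothelium that is known for keeping vesicle transport low, read 14.04, 13.96, 13.67 and 13.83 in controls and 11.47, 11.38, 11.31 and 11.56 in mutants (log2 difference -2.45, SE 0.10, adjusted p = 2.6e-05). It fell 5.45-fold with little spread in either group. Lrp8, a reelin and apolipoprotein receptor, fell by 1.61, Tfrc, the transferrin receptor that takes up iron, fell by 1.57, and Slc38a3, a glutamine transporter, fell by 1.52.

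The best-known barrier genes did not pass the test. Slc2a1, the glucose transporter, was at 15.05 ± 0.08 in controls and 14.95 ± 0.02 in mutants (log2 difference -0.10, SE 0.06, adjusted p = 0.29). Cldn5, the main claudin of the barrier, was at 15.63 ± 0.21 and 15.79 ± 0.06 (log2 difference 0.16, SE 0.11, adjusted p = 0.35). Both lie near the top of the scale, where the 8 arrays end at 16.3 to 16.6, so a rise there has little room to show. Of 18 junction genes tested 1 rose and 1 fell, and the fall was Jam2, a junctional adhesion molecule, from 13.38 to 13.53 to 12.29 to 12.76. Fcgrt, the receptor that carries immunoglobulin G, fell by 0.90, and Thbd, the anticoagulant thrombomodulin, fell by 1.53.

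Laminins, the cross-shaped proteins of the basement membrane, changed by chain. Lama2, a laminin of mural and astrocyte basement membranes, fell from 8.03, 8.36, 8.82 and 8.13 to 4.28, 3.15, 3.15 and 4.68 (log2 difference -4.52, SE 0.38, adjusted p = 4.7e-04), near background. Lama5 fell by 1.18 and Lamb2 fell by 0.63. Lama4, an endothelial laminin chain, rose instead, from 10.28 to 10.56 to 11.34 to 11.56 (log2 difference 1.04, SE 0.09, adjusted p = 4.8e-04). Over 23 basement membrane genes tested 4 fell and 2 rose, median 0.04.

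Over 21 lipid-handling genes tested 5 rose, 3 fell and 13 were not called, median 0.10. Among the rises were 2 pumps that export cholesterol. Abca1 read 10.75, 10.70, 10.70 and 10.53 in controls and 12.19, 12.46, 13.28 and 12.30 in mutants (log2 difference 1.89, SE 0.23, adjusted p = 0.002), and Abcg1 went from 9.27 to 9.54 to 10.72 to 10.87. The 3 falls were in Hmgcs1, Sqle and Insig1. Hmgcs1, which makes the precursor of mevalonate and whose upstream sequence is printed above, went from 12.89, 13.18, 12.94 and 12.75 to 11.99, 12.04, 11.95 and 12.19 (log2 difference -0.90, SE 0.10, adjusted p = 0.0017). Sqle, squalene epoxidase, fell by 1.11, and Insig1, which holds the sterol sensor in the endoplasmic reticulum, fell by 1.26.

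Some lists had few called genes, set beside the background of 8% higher and 8.63% lower. Of 29 respiratory-chain genes 0 rose and 2 fell, median -0.03, and Ndufa8, the larger change, fell by 0.42. Of 16 Wnt and barrier-induction genes 0 rose and 2 fell, and of 18 immediate early and heat shock genes 1 rose and 0 fell. Of 20 endothelial markers 3 rose and 2 fell, both shares above the background, with a median of 0.08.

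Other lists had a larger share called. Of 16 Notch genes 7 fell and 1 rose, with 3 falling under Gh as a covariate, on mutant 3 alone or with the replicate number as a block. The list holds mural genes that are also in the pericyte list, such as the receptor Notch3, which fell by 3.27. The ligand Dll1 fell by 1.79, from 8.82 to 9.85 in controls to 6.91 to 7.79 in mutants. Of 12 potassium channel genes 4 fell and 0 rose, led by Abcc9 and Kcnj8. Of 13 genes of the FGF axis 4 fell and 1, Fgfbp1, rose, and 2 fell without control 2. Fgfr3, a receptor that is also in the astrocyte list, fell by 2.24, a call that was lost without control 2 at an adjusted p of 0.0514.

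Leukocyte adhesion and interferon genes had rises and no falls, 5 of 16 and 5 of 23. The chemokine Cxcl10, in both lists, read 6.17, 5.73, 5.42 and 6.75 in controls and 8.19, 7.55, 7.47 and 8.07 in mutants (log2 difference 1.80, SE 0.31, adjusted p = 0.0076). Cx3cl1, the membrane-bound chemokine fractalkine, rose by 1.59, and Iigp1, an interferon-inducible GTPase, by 1.26. The interferon count was 3 without control 2 or mutant 3. Of 11 iron-handling genes 3 rose and 1, Tfrc, fell. Cp, the ferroxidase ceruloplasmin, went from 13.56 to 13.87 in controls to 14.67 to 15.15 in mutants.

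Of 15 complement and coagulation genes 4 fell and 1 rose, among the falls Plat, the tissue plasminogen activator, which fell by 0.84. Among 28 hypoxia and glycolysis genes 3 rose and 5 fell, with 3 falling without control 1 and 2 without control 2 or mutant 2. P4ha2, a collagen prolyl hydroxylase subunit, fell by 2.03. Ddit4, a stress-induced inhibitor of mTOR signalling, fell by 1.77, a call lost without control 2 or mutant 2 at adjusted p-values of 0.0605 and 0.0589.

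**Figure D4:**
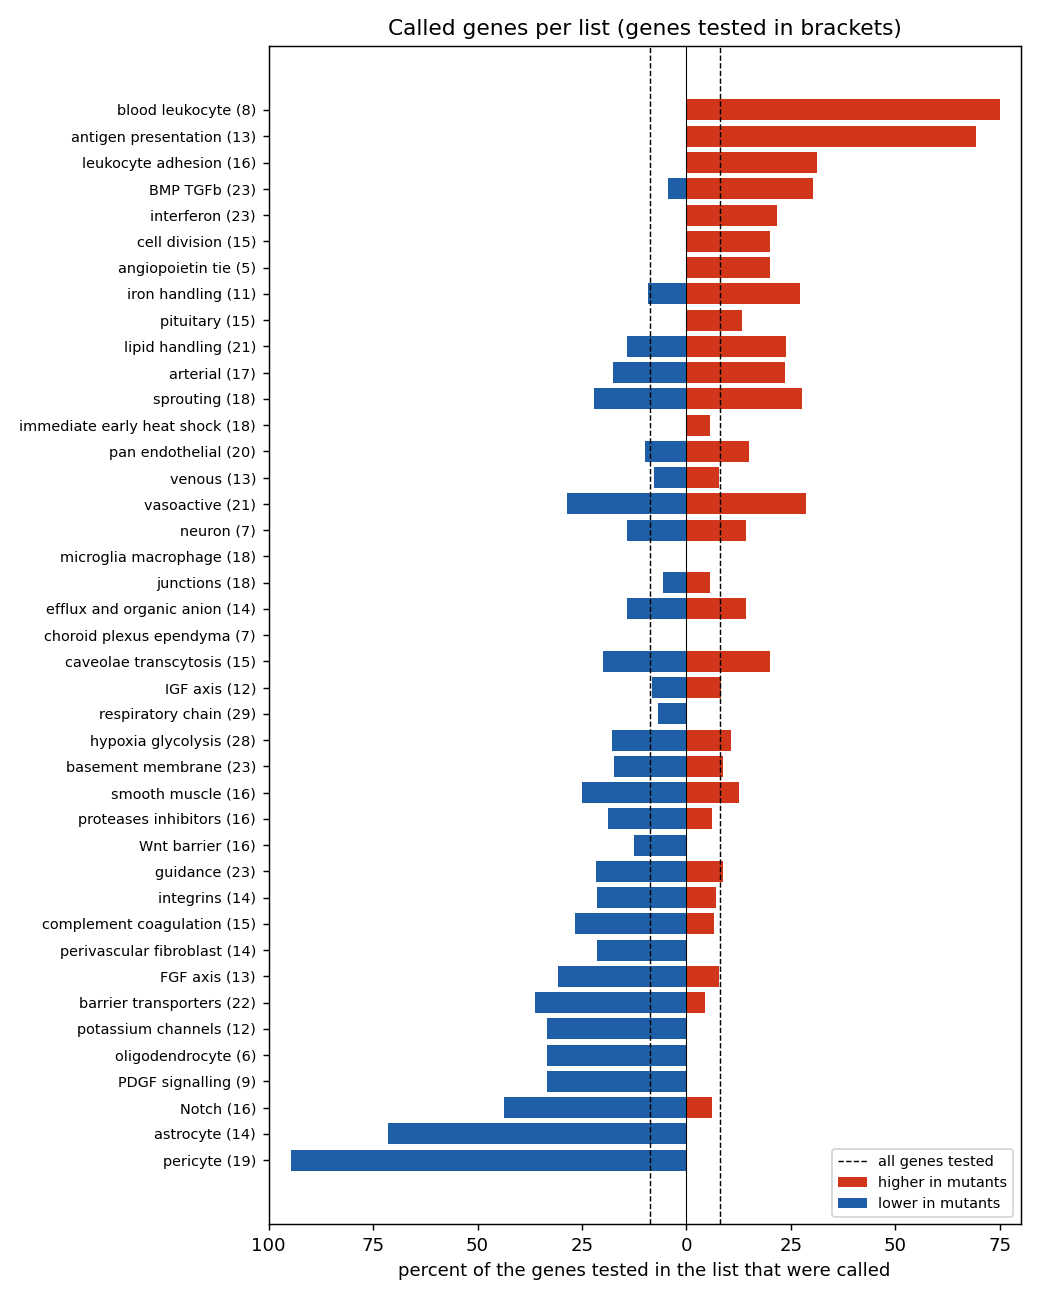
Percent of the tested genes of each list called higher (right) or lower (left) in ret mutants, with the number tested in brackets, for lists with at least 5 genes tested. Dashed lines give the share of all genes tested, 8% higher and 8.63% lower. Pericyte and astrocyte genes reach furthest to the left, and blood leukocyte and antigen-presentation genes furthest to the right.

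Changes not seen on mutant 3 were led by hormone and secretory-granule genes. Prl, prolactin, read 10.71 and 12.63 in mutants 1 and 2, 2.16 in mutant 3 and 14.98 in mutant 4, and it was at the floor of 2.16 on all 4 controls. Cga, the alpha subunit shared by pituitary glycoprotein hormones, read 14.34, 13.92, 2.78 and 15.12 in mutants and 2.78 to 3.88 in controls. Tshb and Fshb, beta subunits of such hormones, and the granule protein Scg2 had the same split, at 7.82, 7.53, 2.17 and 8.40 for Tshb and 10.94, 9.94, 2.34 and 11.28 for Scg2. With all 4 mutants these genes missed the threshold because of the spread within mutants (Prl adjusted p = 0.065, Cga 0.064, Scg2 0.058), whereas without mutant 3 the adjusted p was 0.0014 for Prl, 4.3e-05 for Cga and 5.8e-05 for Scg2. Gh itself passed with all 4 (adjusted p = 0.047) and lost its call without any 1 array other than mutant 3, at 0.0894 to 0.113.

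Pomc, the precursor of corticotropin, did not share this split. It read 9.85, 9.70, 9.30 and 10.20 in controls and 13.92, 12.16, 11.65 and 14.24 in mutants, so that mutant 3 too was above all controls (log2 difference 3.23, SE 0.59, adjusted p = 0.01). Of 15 pituitary genes tested Gh and Pomc rose and 0 fell. The list mean was 3.74 to 4.16 in controls, 3.89 in mutant 3 and 8.57 to 11 in the other mutants.

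The R26P cerebrum arrays gave a separate reading of what moves with Gh. There Gh was high in controls 2 and 3 (14.19 and 14.58) and mutants 2 and 3 (14.69 and 14.89), and at 2.66 to 4.83 on the other 4 arrays, so that it was balanced over genotype. High Gh fell on the same replicate numbers, 2 and 3, in both genotypes, so anything shared by arrays of 1 number cannot be told apart from Gh there. With genotype in the model, 15 genes (0.133%), Gh itself among them, had a slope on Gh past an adjusted p of 0.05 in limma, and all 15 slopes were positive. For Gh the slope was fixed in advance, as was its place in the ret mutants, which it divided. For all 15 the ret mutants 1, 2 and 4 were above every ret control. The share of all genes tested with these mutants above is not given here, and with all 4 mutants it was 11.7%. Prl was above 4 only on arrays with high Gh, so it passed the filter through those arrays. Resp18 and Cyp2f2 were at or near the floor on all ret controls. For such genes the count is no separate support. Beside Prl and Cga the 15 included Chgb and Resp18 of secretory granules, Bex1, a small brain-expressed protein, Cyp2f2, a cytochrome P450, and Pomc. Over the range of 10 log2 units of Gh, Prl was higher by 9.93 and Cyp2f2 by 5.90 in those mice, both at an adjusted p of 0.0054. The number of calls rested on single arrays and was between 3 and 10 when any 1 of the 8 was left out, the lowest without R26P mutant 4.

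Of 161 genes for which ret mutants 1, 2 and 4 were above every control and mutant 3 was not, 10 had such a slope, and of the 883 rises also seen on mutant 3, 1 had it. All 10 were among the 80 genes with mutant 3 at least 1 log2 unit lower than the other mutants. Slopes over 10 log2 units of Gh had a median of 1.32 over those 80 genes, 0.03 over the 883 rises and 0.02 over all genes tested. The 80 genes were chosen as higher on ret arrays with high Gh. Some, such as Prl, Fshb and Tshb, were near the floor on ret controls and mutant 3. Such genes can pass the filter through arrays with high Gh, so their counts and slopes are no separate support. Meg3, a maternally expressed non-coding RNA, read 9.02, 9.22, 9.12 and 8.52 in controls and 11.56, 10.20, 6.06 and 13.36 in mutants, so mutant 3 was below the controls and the others above them. Its slope in the R26P mice was 2.93 (adjusted p = 0.13).

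Plvap, the diaphragm protein of fenestrated endothelium, which the pituitary has and barrier vessels lack, was among the genes not seen on mutant 3. It read 10.95, 10.88, 11 and 10.93 in controls and 12.85, 12.24, 10.41 and 12.82 in mutants (log2 difference 1.14, SE 0.51, adjusted p = 0.17). Mutants 1, 2 and 4 stood above every control, and mutant 3 stood 0.53 below the control mean. Without mutant 3 the difference was 1.70 at an adjusted p of 0.0018. In the R26P cerebrum its slope on Gh was 0.87 over 10 log2 units (adjusted p = 0.88). The part of pituitary vessels in the Plvap values was not tested beyond this.

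Set beside the R26P model, which shares no array with it, the ret comparison had many of the same calls. In R26P cerebrum 2097 genes (18.7%) were called, 939 higher (8.35%) and 1158 lower (10.3%). Without R26P control 1 the calls were 1387, 561 of them higher, and without R26P control 3 the rises were 625. Higher in both were 346 genes, 38.4% of the ret rises and 36.8% of the R26P rises, and lower in both 435 genes, 44.8% of the ret falls and 37.6% of the R26P falls. Calls in opposite directions were made for 8 ret rises and 5 ret falls. Bmp6 rose by 4.95 in ret mutants and 4.37 in R26P mutants, and Apln by 4.04 and 4.72. Fgfbp1 was called higher in both, but its control means of 3.26 and 3.31 were near background, so its 2 differences were not compared in size. Abcc9 differed by -4.96 and -4.82, and Vtn by -3.30 and -2.83. A test of the difference between the 2 effects passed for 2 of 19 pericyte markers, against 3.35% of all genes tested. Of the antigen-presentation list, 1 of 13 genes was called in R26P mutants, and Cd74 differed there by 0.12, but the difference of effects did not pass for it (ret minus R26P 2.53, SE 0.77, adjusted p = 0.084).

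The difference of effects itself was past an adjusted p of 0.05 in limma for 377 genes (3.35%), 188 with the ret effect above (1.67%) and 189 below (1.68%). It was 127 to 250 without ret control 1 or 2, ret mutant 2 or 4, R26P control 1, 2 or 3 or R26P mutant 1, and 611 without R26P mutant 4. Strain background, age and region labels differ between the models too. The 2 largest were for Ccr6, a chemokine receptor, at 7.31 (adjusted p = 0.041), and Pdgfb, deleted in R26P mutants, at 7.00. Ccr6 was at the floor on 3 of 4 ret controls, which leaves the size of its difference unsure. Mmrn1, multimerin 1 of platelets and endothelium, was at the floor or just above it, 2.16 to 2.23, in ret controls and at 7.49, 7.47, 5.31 and 7.72 in ret mutants, while R26P mutants differed by 0.09 (difference of effects 4.73, SE 0.55, adjusted p = 8.1e-04). Of the arrays of this test, only the ret mutants had Mmrn1 above 4, the level of the filter. For Mmrn1 the size is therefore unsure and the call is no separate support. Dcdc2a, a doublecortin-domain protein, rose by 2.30 in ret mutants and fell by 1.33 in R26P mutants.

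Colec11, a collectin of innate immunity, fell by 2.79 in ret mutants, from 6.43 to 7.33 to 3.78 to 4.75, with a difference of 0.11 in R26P mutants. Lhx6, a LIM homeobox factor, fell by 1.93 in ret mutants with 0.16 in R26P mutants, and the prostaglandin transporter Slco2a1 differed by -0.72 in ret mutants, where mutant 3 at 6.93 was far below the others, and rose by 1.35 in R26P mutants. Of 14 astrocyte genes 2 had effects that differed between the models, both with the smaller fall in ret mutants: Slc1a2 differed by -1.81 against -2.62 (difference of effects 0.81, SE 0.17, adjusted p = 0.026) and Mlc1 by -1.63 against -3.72 (adjusted p = 0.041). The efflux pump genes Abca1 and Abcg1 rose more, Abca1 by 1.89 against a difference of 0.28 (adjusted p = 0.0089) and Abcg1 by 1.40 against 0.72 (adjusted p = 0.041). Smad6, not called in ret mutants, rose by 2.28 in R26P mutants, and the effects differed by -1.90 (adjusted p = 0.0036). Unc5b fell by 0.88 in ret mutants against a difference of 0.40 in R26P mutants (adjusted p = 8.1e-04), and Sema7a, a semaphorin, fell by 1.20 against a difference of -0.25 (adjusted p = 0.0096).

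**Figure D5:**
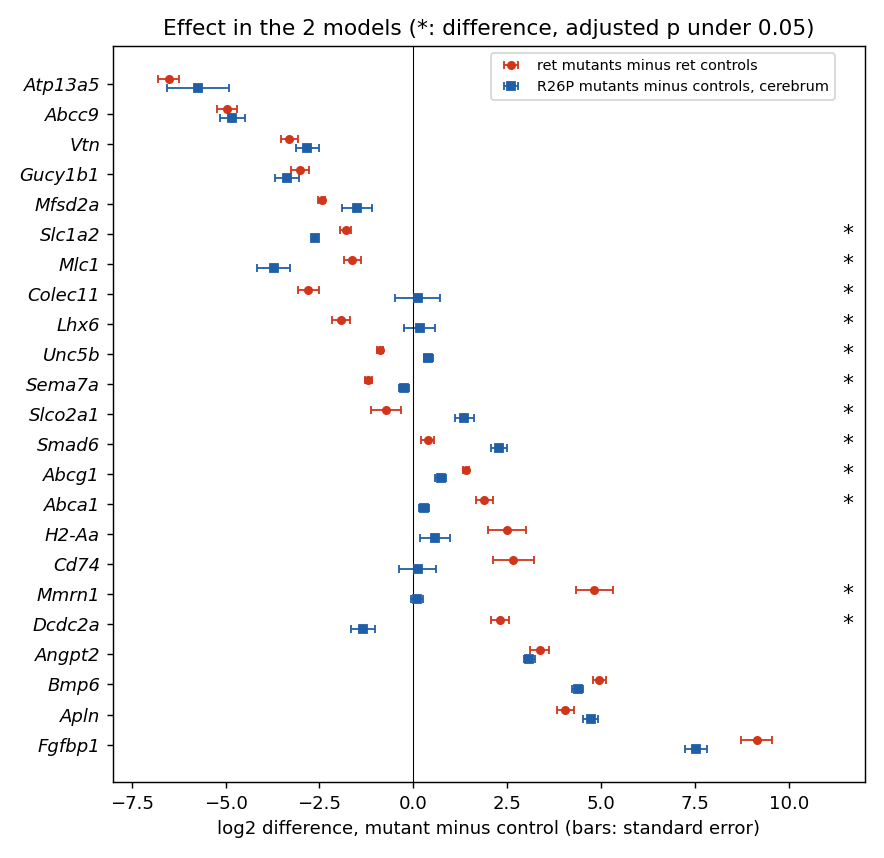
Log2 difference from the model's own controls for 23 genes in ret mutants (circles) and in R26P mutants, cerebrum (squares), with standard errors as bars. Stars mark a difference of effects past an adjusted p of 0.05, as for Mmrn1, Dcdc2a, Colec11, Abca1 and Smad6. The pericyte genes shown at the top, Atp13a5, Abcc9 and Vtn, carry no star, nor do Angpt2, Bmp6, Apln and Fgfbp1 at the bottom. Among all 19 pericyte markers tested, 2 had a difference of effects past that threshold, against 3.35% of all genes tested.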

How the data were processed

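RNA of brain microvascular fragments was measured on Affymetrix mouse arrays, after small-sample amplification to biotin-labelled cRNA per the labels' protocols. The deposited values are log2 signals that the authors made with GCRMA 2.6.0 under R 2.4.1, per the submitters' processing notes; they were used as deposited, and the number of arrays limits their precision. Of 45101 probe sets, 34958 were paired with 1 gene, 932 with several and 9211 with none. Each comparison was fitted by lmFit and eBayes of limma 3.58.1 (R 4.3.3) to its own arrays only, two-sided, with Benjamini-Hochberg adjustment over all genes tested, and the scripts were tested on simulated data. Groups come from the labels, which call the arrays biological replicates. Replicate numbers were not taken to pair mutants with controls, since same-numbered arrays did not all deviate together in either model. Genes named are the largest changes without overlap between groups, up to 4 called members of each list, genes highest in Gh-bearing mutants, the largest differences between models, and a fixed short list, of which a selection is given, with a few more chosen after their values were seen. The comparison, gene lists and rules were chosen with earlier results of these data known. Alternatives were other filters, probe set rules, priors, normalizations, covariates, blocks and each array left out. Promoter sequences are from RefSeq (GRCm38.p6).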

Additional observations from a re-analysis of the deposited data

Results flagged for a closer look

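Single arrays stood far from the other 3 of their group in 16 of 204 readings examined (102 genes in each group), or 7.84%. Chance gives such a gap in about 1 of 20 readings, but some of the 102 genes were chosen because mutant 3 was low. The 7.84% can therefore not be compared with that rate. Mutant 3 was far below the other mutants for Gh (2.84 against 13.68 to 15.23), Cga (2.78), Scg2 (2.34), Tshb (2.17), Mmrn1 (5.31) and Slco2a1 (6.93). Mutant 4 was apart for Cdh26 (11.99, lowest), Clec7a (10.26, highest) and H2-Ab1 (12.50, highest). Among controls, array 4 was low for Ccn3 (8.05) and Cp (13.56) and high for Ccr6 (5.99), array 1 was high for Dll1 (9.85), array 3 was low for Tfrc (13.62) and high for Cga (3.88), and array 2 was high for Gh (2.47), both Gh and Cga being near background in controls.

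The ret effect was above the R26P cerebrum effect, by a test of the difference in limma, for Ccr6 (7.31), Pdgfb (7.00), Mmrn1 (4.73), Dcdc2a (3.63), Slc22a14 (2.62), Mlc1 (2.09), Grm3 (1.66), Abca1 (1.61), Slc1a2 (0.81) and Abcg1 (0.67). For Grm3, Mlc1 and Slc1a2 this is a smaller fall. Grm3 ended near background in both models, with means of 3.04 in ret mutants and 2.66 in R26P mutants, so its size is unsure. Control means near background leave the sizes for Slc22a14 and Mmrn1 unsure too. They were 2.17 and 2.18 in ret controls, and 2.17 and 2.34 in R26P controls. The ret effect was below it for Colec11 (-2.91), Lhx6 (-2.09), Slco2a1 (-2.07), Smad6 (-1.90), Unc5b (-1.28) and Sema7a (-0.95). Adjusted p-values over all genes tested were all under the threshold of 0.05 for these genes.

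Outside the comparisons used here, Gh was at 13.93 on wild-type cerebrum array 3 and at 2.17 on each of the other 2 wild-type cerebrum arrays, so that pituitary transcripts also appear in mice without either Pdgfb change.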

How the results depend on the processing

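Over all genes, the ret comparison's 1870 calls (900 higher, 970 lower) became 1229 (567 higher) with no expression filter, 821 (412 and 409) with Gh as a covariate, 919 (441 and 478) with mutant 3 alone, and 987 (472 and 515) with the replicate number as a block, and they lay between 1153 and 1931 (552 to 962 higher, 601 to 1080 lower) when 1 array was left out. The other alternatives, which were a stricter filter, probe set means, another prior, renewed normalization, median centring, a spread shared over 24 arrays, and Xist or age as a covariate, gave 1504 to 2443. Calls without mutant 3 fell from 1359 to 707 (311 and 396) with no filter and to 720 to 1148 (333 to 618 higher, 387 to 640 lower) when 1 more array was left out. The class of intermediate genes had 8 members at a required share of 25% and 194 at 75%. Slopes on Gh were called for 9 genes with Prl in its place and for 3 to 10 with 1 array left out. R26P calls were 1278 (494 higher) with the replicate number as a block and 1387 to 1945 (561 to 822 higher, 826 to 1123 lower) with 1 array left out. The difference of effects was called for 111 genes (68 and 43) with Gh as a covariate, 68 (46 and 22) with the block, and 127 to 611 (72 to 332 above, 55 to 279 below) with 1 array left out. No value here tests the cause of these shifts. Gh was near the floor in all 4 ret controls and in mutant 3. With Gh as a covariate the ret difference therefore rests largely on mutant 3, as it does with mutant 3 alone. The labels tie the replicate number to no shared litter or day. Same-numbered arrays correlated, after removal of group means, at -0.20 to 0.03 in the ret comparison, where no array correlated best with its own number, and at 0.13, 0.22, -0.14 and 0.34 for numbers 1 to 4 in R26P cerebrum, so the number was not taken as a pairing in either. Among the gene lists, some counts also moved by more than 1.5 times. With mutant 3 alone, 4 BMP and TGF-beta genes, 3 vasoactive genes, 3 lipid-handling genes, 1 leukocyte adhesion gene and 2 interferon genes rose, and 5 barrier transporters, 2 potassium channel genes, 2 FGF-axis genes and 1 hypoxia gene fell. With Gh as a covariate, 3 lipid-handling genes, 2 leukocyte adhesion genes and 1 interferon gene rose, and 2 vasoactive genes, 5 barrier transporters, 2 complement genes and 1 hypoxia gene fell. With the block, 3 sprouting and 3 interferon genes rose, and 1 smooth muscle gene, 5 barrier transporters, 1 lipid-handling gene, 1 FGF-axis gene and 3 hypoxia genes fell. With no filter, 1 smooth muscle gene, 2 FGF-axis genes and 3 hypoxia genes fell, and with the stricter filter 3 lipid-handling genes rose. Of the smooth muscle genes 12 fell with the spread over 24 arrays, 2 with Xist and 1 with age as a covariate, and 3 leukocyte adhesion genes rose with that spread.

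Reversals were limited to genes not seen on mutant 3, with Gh as a covariate or on mutant 3 alone. With the covariate the log2 difference became -0.67 for Plvap, -0.51 for Prl, -0.87 for Cga, -2.50 for Chgb, -0.45 for Scg2, -0.48 for Fshb, -0.29 for Tshb, -0.51 for Resp18, -1.55 for Bex1, -0.64 for Cyp2f2 and -3.36 for Meg3. On mutant 3 alone it was -0.53 for Plvap, -0.32 for Cga, -1.90 for Chgb, -0.011 for Scg2, -1.03 for Bex1, -0.0016 for Cyp2f2 and -2.91 for Meg3. Floor values and 4 arrays a group limit what low genes can show.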
